A study of Mus musculus with 2 samples.

Results

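The 10 genes described here encode transcription factors that drive fat cell formation and proteins that bind, coat or take up lipid: Cebpa, Cebpb, Cebpd, Pparg, Plin2, Plin3, Plin4, Fabp4, Fabp5 and Lpl. They were taken by symbol after the 16881 RefSeq transcripts of the deposited table had been matched to mouse genes, and all 10 were found, with 1 transcript each. RNA sequencing compared p65-/- with p65+/+ immortalised mouse embryonic fibroblasts (MEFs), both of the C57BL/6 strain, with 1 library of total RNA per genotype. The p65 protein is the Rela product and one part of the transcription factor NF-kB, and the labels name neither a stimulus nor a medium that induces fat cells. No difference has a replicate check, so no p-value is given, and the 95% intervals below cover counting error in these 2 libraries only.

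In adipogenesis, C/EBPbeta and C/EBPdelta act early and induce PPARgamma and C/EBPalpha. The last pair keep each other expressed and switch on genes of lipid uptake and storage such as Fabp4, Lpl, Plin2 and Plin4. Embryonic fibroblasts can be driven along this route by hormones or by forced expression of these factors, and inflammatory signals that act through NF-kB are known to dampen PPARgamma activity. Perilipins 2 and 3 coat small lipid droplets in most cell types, whereas perilipin 4 is mainly known from fat and muscle.

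The p65-null library held 15441394 fragments and the wild-type library 20794476. Levels are given as fragments and as normalised CPM, fragments per 1e6 library fragments after trimmed-mean (TMM) scaling, and ratios are p65-null over wild-type. A transcript counted as measured at a mean of at least 1 normalised CPM, which 12135 did, with a median log2 ratio of -0.03. As the mean is over both libraries, a transcript can pass through 1 library alone, which favours ratios past 2-fold. Rela itself had 198.5 fragments in p65-null cells and 1918 in wild-type cells, 6.90-fold lower without p65 (5.96 to 8.03). The libraries also differed in ways the genotype label does not name: Xist had 2 fragments in the p65-null and 956 in the wild-type library, and Cdkn2a 3 and 1693.5. Kdm5d, a gene of the Y chromosome, had 207 fragments in p65-null cells and 0 in wild-type cells. With 1 culture each, the loss of p65 and other differences between the cultures cannot be told apart. In bulk RNA, fewer cells expressing a gene and less RNA per cell cannot be told apart either.

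Promoter sequence is shown for 4 of the genes that lie at different points of the range found below, and for Cebpb. Cebpa and Plin4 were the highest in p65-null cells relative to wild-type, Plin2 was lower, and Pparg and Cebpb differed little. Each line holds the 250 bases before a RefSeq start site (GRCm38.p6), 5′ to 3′ on the gene's strand, and capitals mark matches to 6 motifs searched on both strands. These were the TATA box TATAAA, the E-box CACGTG, a C/EBP core TTGCNNAA, a kB site (GGG and TTTCC with 2 free bases between them), a PPAR half-site AGGTCA and a CRE half-site TGACG. Of 32851 promoters of the same length, 12.4%, 6.02%, 9.56%, 1.41%, 14.0% and 17.8% hold a match to each in that order.
Cebpa (chr7:35119043-35119292, plus strand): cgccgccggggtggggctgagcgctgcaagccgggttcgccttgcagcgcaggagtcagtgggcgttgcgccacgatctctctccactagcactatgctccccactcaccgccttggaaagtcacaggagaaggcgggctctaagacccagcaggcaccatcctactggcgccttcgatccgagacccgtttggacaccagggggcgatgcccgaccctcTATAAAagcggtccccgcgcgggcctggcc
Cebpb (chr2:167688665-167688914, plus strand): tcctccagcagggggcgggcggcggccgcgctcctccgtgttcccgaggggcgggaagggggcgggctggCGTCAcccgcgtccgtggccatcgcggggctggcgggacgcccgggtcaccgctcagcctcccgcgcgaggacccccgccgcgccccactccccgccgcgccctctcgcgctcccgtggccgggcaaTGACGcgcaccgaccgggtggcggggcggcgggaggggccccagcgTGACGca
Pparg, most downstream of 3 starts (chr6:115421816-115422065, plus strand): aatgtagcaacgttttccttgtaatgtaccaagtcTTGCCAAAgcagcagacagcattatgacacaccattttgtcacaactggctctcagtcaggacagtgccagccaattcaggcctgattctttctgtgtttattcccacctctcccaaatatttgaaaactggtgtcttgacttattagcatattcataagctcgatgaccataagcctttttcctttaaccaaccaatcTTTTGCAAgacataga
Plin2 (chr4:86670060-86670309, minus strand): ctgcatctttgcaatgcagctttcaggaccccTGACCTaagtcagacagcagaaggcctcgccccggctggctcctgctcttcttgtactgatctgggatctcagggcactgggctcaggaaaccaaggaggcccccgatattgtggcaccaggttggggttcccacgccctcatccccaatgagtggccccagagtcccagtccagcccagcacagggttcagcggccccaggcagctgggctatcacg
Plin4 (chr17:56109783-56110032, minus strand): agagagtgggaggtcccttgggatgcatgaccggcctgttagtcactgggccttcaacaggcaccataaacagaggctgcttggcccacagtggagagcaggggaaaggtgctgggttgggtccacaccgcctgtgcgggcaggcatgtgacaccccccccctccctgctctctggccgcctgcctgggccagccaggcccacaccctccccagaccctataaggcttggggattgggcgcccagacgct

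The Cebpa sequence has the TATA box 30 bases before the start, and the Cebpb sequence has 3 CRE half-sites. The printed Pparg sequence, of the most downstream start, has a C/EBP core on each strand. The 2 other Pparg starts, not printed, have no C/EBP core but 1 PPAR half-site each, and 1 of them has a TATA box on the reverse strand. Which start gave the Pparg fragments was not tested. The Plin2 sequence has 1 PPAR half-site, on the reverse strand. The Plin4 sequence, printed wholly in lower case, holds none of the 6. No kB site match was found in the 8 promoters of the 6 genes that have one in the RefSeq table, which says only that these letters are not in these windows. A match is a stretch of letters, not a shown binding site. Cebpd, Fabp4, Fabp5 and Lpl were not among the promoters used.

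Among the 9 measured genes, Cebpa and Plin4 were higher in the p65-null library by 2-fold or more, and Fabp5 and Fabp4 were lower by 2-fold or more, 2 genes each way. Of all measured transcripts 12.2% passed 2-fold on the higher side and 13.7% on the lower side, so the counts over 9 genes are a description only. The other 5 lay within 2-fold, and Lpl lay under the expression minimum in both libraries. The median log2 ratio of the 9 was 0.21, or -0.19 with the libraries scaled to their ribosomal protein genes and -0.17 once ratios were adjusted for the GC content and length of transcripts (the correction named below). The adjusted median is the value of Cebpd, whose transcript match is unsure, as given below. Members of the perilipin family lay on opposite sides.

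**Figure D1:**
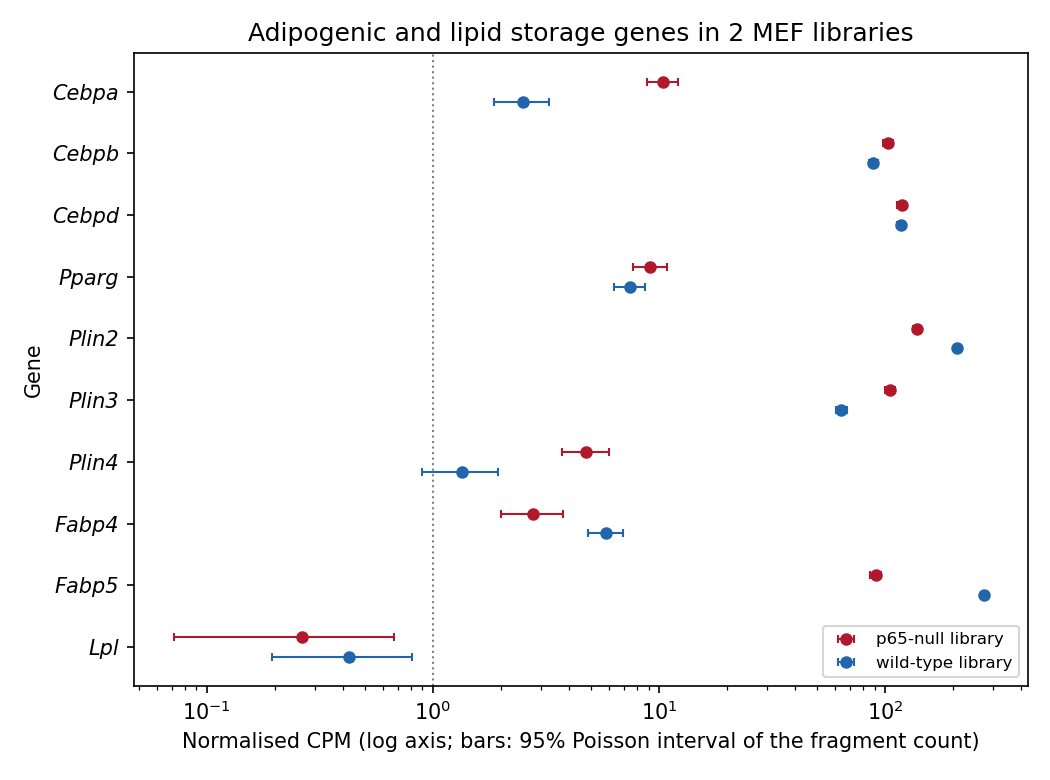
Normalised CPM (log axis) of the 10 genes in the p65-null (red, upper point) and the wild-type library (blue, lower point), with 95% Poisson intervals of the fragment counts; the dotted line marks 1 CPM. Cebpa, Plin3 and Plin4 lie to the right in the p65-null library, Plin2, Fabp4 and Fabp5 in the wild-type library, and both Lpl points lie under 1 CPM.

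Cebpa, on chromosome 7 (35119293 to 35121928), encodes C/EBPalpha, the member of the family that maintains the differentiated fat cell. It had 158 fragments, or 10.4 normalised CPM (8.87 to 12.2), in the p65-null library, against 53 fragments, or 2.50 normalised CPM (1.87 to 3.27), in the wild-type library. The intervals of the libraries did not overlap, and the level was 4.17-fold higher in p65-null cells (3.04 to 5.81). The log2 ratio of 2.06 was reached or passed by 4.10% of measured transcripts, and it stood at 1.51 after the GC and length correction. Over the 10 alternative settings, it ran from 1.51 to 2.17.

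The early factors Cebpb and Cebpd were much more abundant than Cebpa and close to equal in the libraries. Cebpb, on chromosome 2 (167688915 to 167690432), had 1555 fragments in the p65-null and 1876.5 in the wild-type library, which is 103 and 88.5 normalised CPM. Its log2 ratio of 0.21 (0.12 to 0.31) lay on the higher side by a small margin and turned to -0.19 under ribosomal protein scaling and -0.45 after the GC and length correction. Cebpd, on chromosome 16 (15887286 to 15889545), had 1790 fragments in the p65-null and 2484 in the wild-type library, or 118 and 117 normalised CPM. Its log2 ratio was 0.01 (-0.08 to 0.10), so that a difference beyond counting error was not seen, although under ribosomal protein scaling it was -0.39 and after the correction -0.17. The GENCODE transcript matched to Cebpd, of 3746 bases, is longer than the RefSeq span just given. Its corrected value and its values per kilobase depend on that match and are unsure. Stretches of both matched transcripts are shared with neighbours: 563 bases of Cebpd with Spidr and 320 bases of Cebpb with Tmem189. The 563 bases rest on the same unsure match, and the RefSeq spans of Cebpd and Spidr overlap by 322 bases. The handling of such reads was not given in the sources used here. Spidr had a log2 ratio of -0.25.

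Set against each other, the C/EBP genes did not move together. The log2 ratio of Cebpa exceeded that of Cebpb by 1.85 (1.38 to 2.33) and that of Cebpd by 2.05 (1.58 to 2.53), and such differences, taken for 10 pairs of the genes, do not depend on how the libraries are scaled. Cebpb exceeded Cebpd by 0.20 (0.07 to 0.33), whereas after the correction Cebpb was at -0.45 and Cebpd at -0.17. Whether that order depends on GC content and length is unsure, since the correction used the Cebpd transcript that is longer than the gene's RefSeq span. Cebpa took 4.51% (3.85% to 5.25%) of the fragments of the 3 genes in the p65-null library and 1.20% (0.90% to 1.57%) in the wild-type library. Cebpb took 44.4% in the p65-null and 42.5% in the wild-type library, and Cebpd 51.1% and 56.3%, so the pair of abundant members held most of the fragments in both libraries. These are shares of fragments and not of transcripts: per kilobase Cebpb took 65.8% in p65-null and 64.6% in wild-type cells, ahead of Cebpd at 30.4% and 34.3%. The per-kilobase share of Cebpd may be too low and that of Cebpb too high, since the matched Cebpd transcript is longer than the gene's RefSeq span. Of the rest of the family, Cebpz, whose product is a CCAAT-box binding factor outside the leucine zipper group, was 2.90-fold lower in p65-null cells, or -0.99 on the log2 scale after the correction. Cebpg and Ddit3, which encode zipper partners that can hold back other C/EBP proteins, had log2 ratios of -0.13 (-0.31 to 0.04) and -0.18 (-0.38 to 0.01), which the correction moved apart, to 0.45 and -0.69.

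Pparg, on chromosome 6 (115360879 to 115490404), encodes the nuclear receptor without which fat cells do not form. It had 138.5 fragments in the p65-null and 157 in the wild-type library, or 9.14 normalised CPM (7.68 to 10.8) and 7.41 (6.29 to 8.66). The log2 ratio of 0.30 had an interval that included 0 (-0.04 to 0.64), and it was -0.10 under ribosomal protein scaling. The difference was thus not detectable at this depth, and the interval leaves room for a level up to 1.56-fold higher. Cebpa exceeded Pparg in log2 ratio by 1.76 (1.18 to 2.35), so the late-acting pair of factors differed in how far apart the libraries stood. The gene of its heterodimer partner, Rxra, was higher, at 203 normalised CPM in the p65-null and 106 in the wild-type library. Its log2 ratio was 0.94 (0.86 to 1.02), or 0.56 after the correction. Rxrb was at -0.02, or -0.56 after the correction. Ppard, which encodes the widely expressed receptor of the family, was at -0.52 (-0.70 to -0.35), or -1.02 after the correction.

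**Figure D2:**
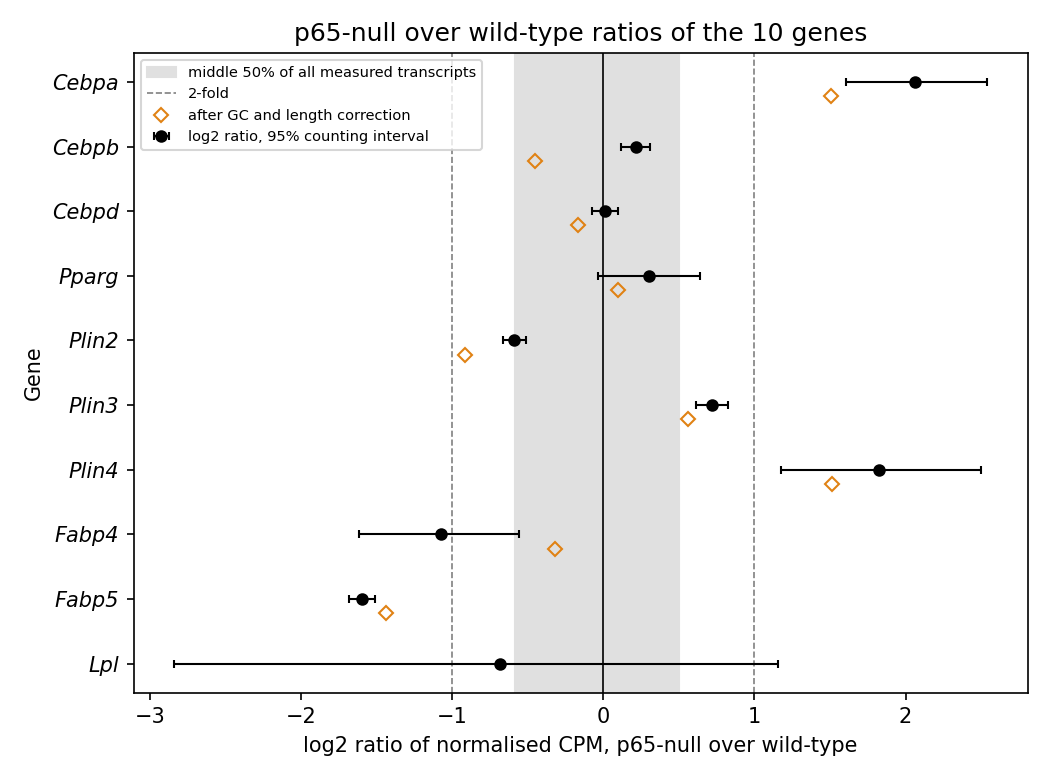
Log2 ratio of normalised CPM, p65-null over wild-type, for each gene with its 95% counting interval (black) and after the GC and length correction (orange diamonds; none for Lpl). The grey band spans the middle 50% of all measured transcripts (-0.58 to 0.50) and dashed lines mark 2-fold; Cebpa and Plin4 lie past 2-fold on the right and Fabp5 on the left with and without the correction, while the corrected Fabp4 lies within 2-fold.

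The perilipin genes were split in direction. Plin2, on chromosome 4 (86626910 to 86670217), had 2100.5 fragments in the p65-null and 4422 in the wild-type library, or 139 normalised CPM (133 to 145) and 209 (203 to 215). It was 1.504-fold lower in p65-null cells (1.43 to 1.59). The span of Plin2 overlaps that of the transcribed pseudogene Gm12551, which has no value here, by 5312 bases. How reads from the overlap were handled was not given in the sources used here. Plin3, on chromosome 17 (56278962 to 56290511), had 1593.5 fragments in the p65-null and 1356 in the wild-type library, or 105 (100.1 to 110.5) and 64.0 (60.6 to 67.5) normalised CPM. It was 1.64-fold higher in p65-null cells (1.53 to 1.77), so that both ubiquitous perilipins lay beyond counting error but within 2-fold, in opposite directions. Those directions were the same under all 5 other scalings and after the correction, with log2 ratios of -0.99 to -0.48 for Plin2 and of 0.31 to 0.83 for Plin3.

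Plin4, also on chromosome 17 (56100587 to 56109948), was far less abundant. It had 72 fragments in the p65-null and 28.5 in the wild-type library, or 4.75 normalised CPM (3.72 to 5.99) and 1.34 (0.90 to 1.94). The intervals did not overlap, and the level was 3.54-fold higher in p65-null cells, with a wide interval (2.26 to 5.66) at these low counts. Its 3' end overlaps Hdgfl2 by 19 bases, and that neighbour had a log2 ratio of -0.20. With only genes of at least 5 CPM kept, Plin4 and Fabp4 are not counted.

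Within the library, the make-up of the perilipin message differed between the genotypes. Plin2 made up 55.8% (54.2% to 57.4%) of the fragments of the 3 genes in p65-null cells and 76.2% (75.04% to 77.2%) in wild-type cells. Plin3 made up 42.3% (40.7% to 43.9%) in p65-null cells and 23.4% (22.3% to 24.5%) in wild-type cells, and Plin4 1.91% and 0.491%. Per kilobase, Plin2 made up 71.2% in p65-null and 86.1% in wild-type cells and Plin3 28.0% and 13.7%, so Plin2 led in both and by less in p65-null cells. As scaling does not enter, the log2 ratio of Plin3 exceeded that of Plin2 by 1.31 (1.18 to 1.44) and that of Plin4 exceeded Plin2's by 2.44 (1.78 to 3.13).

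**Figure D3:**
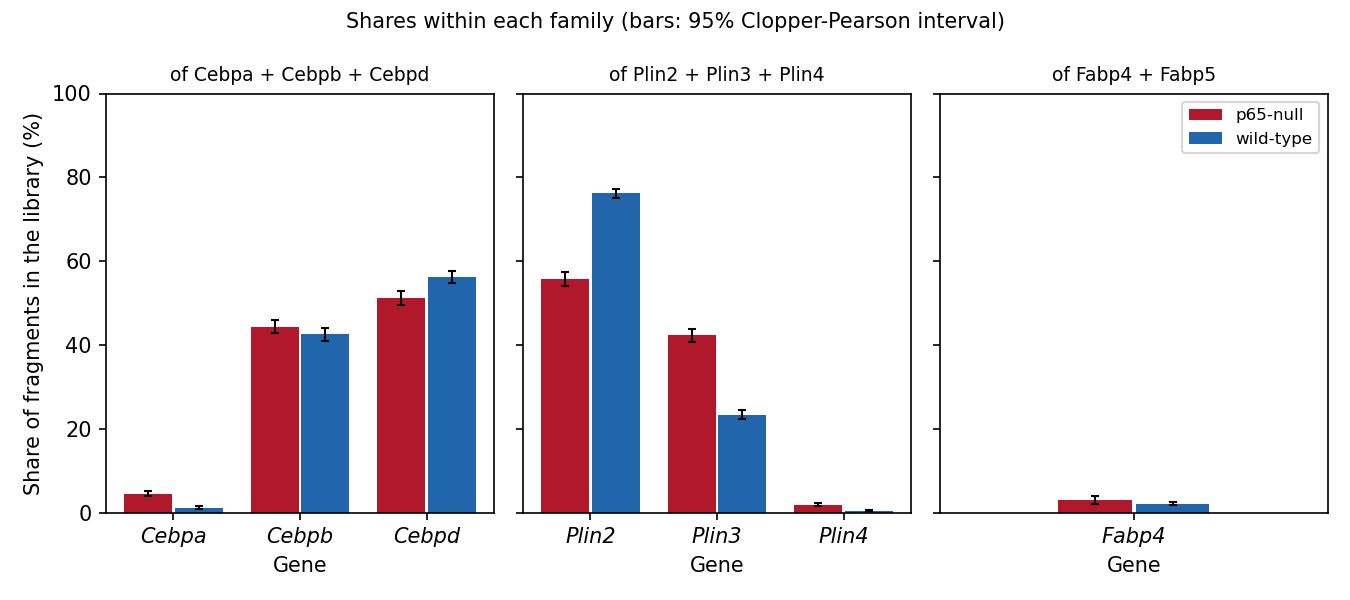
Share of each library's fragments taken by Cebpa, Cebpb and Cebpd of their sum, by Plin2, Plin3 and Plin4 of theirs, and by Fabp4 of Fabp4 plus Fabp5, in the p65-null (red, left) and wild-type (blue, right) library, with 95% Clopper-Pearson intervals. Plin3 took 42.3% in p65-null and 23.4% in wild-type cells, and Cebpa 4.51% and 1.20%.

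The fatty acid-binding proteins, small carriers that move fatty acids through the cytoplasm, were lower in p65-null cells. Fabp5, on chromosome 3 (10012585 to 10016610), encodes the epidermal form and was the most abundant of the 10 per length of transcript. It had 1376 fragments in the p65-null and 5819.5 in the wild-type library, or 90.8 normalised CPM (86.1 to 95.8) and 275 (268 to 282). The level was 3.02-fold lower in p65-null cells (2.85 to 3.21), a log2 ratio of -1.60 that 5.95% of measured transcripts reached or passed on the lower side. It stayed past 2-fold under all 10 alternatives, at -2.0 to -1.44. GENCODE lists transcripts of 5 other genes that are at least 90% identical to Fabp5 over at least 300 bases, and the treatment of reads that match several of them was not given in the sources used here.

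Fabp4, on the same chromosome (10204342 to 10208616), encodes the adipocyte form, also made by macrophages and endothelial cells. It had 42 fragments in the p65-null and 123.5 in the wild-type library, or 2.77 normalised CPM (2.0 to 3.75) and 5.83 (4.84 to 6.95). The intervals did not overlap, and the level was 2.10-fold lower in p65-null cells (1.47 to 3.06). That lay close to 2-fold: the log2 ratio was -1.07, but -0.96 with upper quartile factors and -0.32 after the correction, with a transcript GC content of 40.3%. Fabp4 took 2.96% (2.14% to 3.98%) of the fragments of the 2 carriers in p65-null and 2.08% (1.73% to 2.47%) in wild-type cells, and the difference between their log2 ratios, -0.52 for Fabp5 minus Fabp4 (-1.04 to 0.03), was not beyond counting error.

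Markers of other cell types, those known for Fabp4 among them, were also read. Of 17 markers of mature fat cells, 7 were found among the matched transcripts and 2, Lipe and Dgat2, were measured. The summed level of the 7 was 10.7 normalised CPM in the p65-null and 23.0 in the wild-type library. Dgat2 made up most of the wild-type sum and Lipe most of the p65-null sum, so the lower p65-null sum rests on Dgat2 alone. Dgat2, which adds the last fatty acid to triglyceride, was 4.93-fold lower in p65-null cells, at 3.66 normalised CPM against 18.1 in wild-type cells. Lipe, the hormone-sensitive lipase gene, had 6.21 normalised CPM in p65-null and 4.46 in wild-type cells. Of 14 macrophage markers 11 were found, with sums of 10.7 normalised CPM in the p65-null and 21.9 in the wild-type library. Cd14 alone gave 4.39 of the p65-null and 17.0 of the wild-type sum, so the lower p65-null sum rests on Cd14. The pan-leukocyte gene Ptprc had 0 fragments in the p65-null and 2 in the wild-type library, and Cd14, which fibroblasts also express, had 66.5 and 361. Csf1r had 16 fragments in the p65-null and 44 in the wild-type library, and Mrc1 had 4 and 23.5. The lysosomal marker Cd68 went the other way, with 61.5 fragments in the p65-null and 29 in the wild-type library. Lyz2 was also higher, at 6.5 and 2, but the interval of its log2 ratio included 0 (-0.25 to 5.51). Of 10 endothelial markers 9 were found, with sums of 17.8 and 21.0 normalised CPM in p65-null and wild-type cells, of which Flt1 made up most, with 209 fragments in the p65-null and 373 in the wild-type library. Kdr had 29 fragments in the p65-null and 69 in the wild-type library. Cdh5 had 0 fragments in the p65-null and 1 in the wild-type library, whereas Erg had 25 and 0. Of 9 epithelial markers 7 were found, with sums of 51.4 normalised CPM in p65-null and 16.9 in wild-type cells. Krt19 made up most of these, with 736 fragments in the p65-null and 355.5 in the wild-type library, and Krt18 had 23 and 0 and Cdh1 11 and 0. Whether such cells had a part in the values of Fabp4 or the other genes was not tested. All 13 fibroblast markers found were measured, at summed levels of 29854 normalised CPM in the p65-null and 14585 in the wild-type library. They did not all go 1 way: 6 were past 2-fold on the higher side, 1 on the lower side and 6 within, against 12.2% and 13.7% of all measured transcripts past 2-fold. After the correction the counts were 3 and 1. S100a4 had a log2 ratio of 3.64 and Thy1 of -3.10, and Pdgfrb was at -0.41 (-0.48 to -0.34).

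Lpl, on chromosome 8 (68880555 to 68906932), encodes the secreted lipase that frees fatty acids from lipoproteins. It had 4 fragments in the p65-null and 9 in the wild-type library, or 0.264 normalised CPM (0.072 to 0.676) and 0.425 (0.194 to 0.806). A difference was not detectable at this depth, since the interval of the log2 ratio ran from -2.84 to 1.16. Genes around the enzyme were better covered. Angptl4, which encodes a secreted inhibitor of the lipase and is a common PPAR target, was 13.0-fold higher in p65-null cells, at 37.0 normalised CPM against 2.85 in wild-type cells. Lmf1, needed for folding of the lipase, was 2.58-fold higher, though its log2 ratio of 1.37 was 0.81 after the correction and 0.96 under ribosomal protein scaling. The endothelial lipase gene Lipg was 3.20-fold lower in p65-null cells, at 1.85 normalised CPM against 5.92 in wild-type cells. Lipa, the lysosomal lipase gene, had a log2 ratio of 0.71 (0.58 to 0.84).

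Per kilobase of the matched GENCODE transcript, the order of the 10 genes was much alike in the libraries. In p65-null cells Fabp5 led at 92.0 normalised CPM per kilobase, followed by Plin2 at 73.4, Cebpb at 68.3, Cebpd at 31.5 and Plin3 at 28.9. Pparg at 4.30, Cebpa at 3.97 and Fabp4 at 3.09 came next, with Plin4 at 0.826 and Lpl at 0.0642 last. Neighbours whose counting intervals overlapped were Plin2 and Cebpb, Cebpd and Plin3, and the group of Pparg, Cebpa and Fabp4. In wild-type cells the order was Fabp5 at 278, Plin2 at 110.5, Cebpb at 58.9, Cebpd at 31.3, Plin3 at 17.6, Fabp4 at 6.50, Pparg at 3.49, Cebpa at 0.952, Plin4 at 0.234 and Lpl at 0.103, where Plin4 and Lpl alone had overlapping intervals. Fabp4 was thus above both Pparg and Cebpa in wild-type cells and not separable from either in p65-null cells. Transcript lengths used in counting may differ from these. For Cebpd the matched transcript, of 3746 bases, is longer than the gene's RefSeq span. Its values per kilobase may thus be too low, and its overlap with Plin3 in p65-null cells may not hold.

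Other regulators of fat cell formation, taken from lists of textbook roles, also went both ways. The counts that follow are to be read against the 12.2% of all measured transcripts past 2-fold on the higher side and the 13.7% on the lower side, and with lists this small none is more than a description. Of 17 measured genes that favour adipogenesis, 5 were past 2-fold on the higher side in p65-null cells and 4 on the lower side, with a median log2 ratio of 0.21, or -0.20 under ribosomal protein scaling. The counts were 4 and 8 under that scaling and 4 and 2 after the correction. Among the higher ones was Stat5a, a cytokine-signalling factor, at 34.6 normalised CPM in p65-null and 9.01 in wild-type cells, a log2 ratio of 1.94 (1.70 to 2.19). Nr1h3, the oxysterol receptor LXRalpha, was at 2.73 (1.61 to 4.04) and Egr2, an early inducer of Cebpb, at 1.96 (1.43 to 2.51). Prdm16, the brown fat regulator, had 1 fragment in the p65-null and 42 in the wild-type library and a log2 ratio of -4.91 (-10.24 to -2.35). Nr1h3 (0.377 normalised CPM in wild-type cells) and Prdm16 (0.066 in p65-null cells) passed the expression minimum only through their higher library. Their place among the genes past 2-fold is thus favoured by the minimum itself. The glucocorticoid receptor gene Nr3c1 was at -1.64 and Ebf1 at -1.40, but at -0.78 and -0.73 after the correction. Of 23 measured genes that restrain adipogenesis, 6 were past 2-fold on the higher side and 2 on the lower side, with a median of -0.05, or 0.05 after the correction. Under ribosomal protein scaling the counts were 5 and 7 and the median -0.46. Wnt10b, a ligand that blocks the programme, had 255.5 fragments in the p65-null and 2 in the wild-type library, and Gata3 had 431.5 and 30. Sirt1 was at -1.67 and Nr2f2 at -1.26, or at -1.07 and -0.91 after the correction.

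Genes on a list of those that PPAR proteins commonly activate lay mostly on the higher side. Of 14 measured, 4 passed 2-fold on the higher side and 1, Pex11a, on the lower side, with a median log2 ratio of 0.71 against -0.03 over all measured transcripts, and it was 0.66 after the correction and 0.31 under ribosomal protein scaling, which moved the median of all transcripts to -0.44. The background was 12.2% and 13.7%, and the higher count was 2 under ribosomal protein scaling, after the correction and at the interval end nearest 0. Pex11a (-1.29, with an interval from -2.51 to -0.21) was not past 2-fold at that end and not measured at a minimum of 5 CPM. Besides Angptl4, Pdk4, which spares glucose by inhibiting pyruvate dehydrogenase, was 3.94-fold higher, at 23.3 normalised CPM in p65-null and 5.92 in wild-type cells. Acadvl, the first enzyme of long-chain fatty acid oxidation, was at 1.02, or 0.61 after the correction and under ribosomal protein scaling. The list is a description beside a Pparg level that was not detectably different, and no test of it was made. It left out Fabp4, Lpl, Plin2 and Plin4, which were named above as switched on by PPARgamma and C/EBPalpha. Those genes went both ways. Fabp4 was lower at -1.07 and Plin2 at -0.59, whereas Plin4 was higher at 1.82. Lpl lay under the expression minimum. The values of the list thus do not describe PPAR targets as a class.

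**Figure D4:**
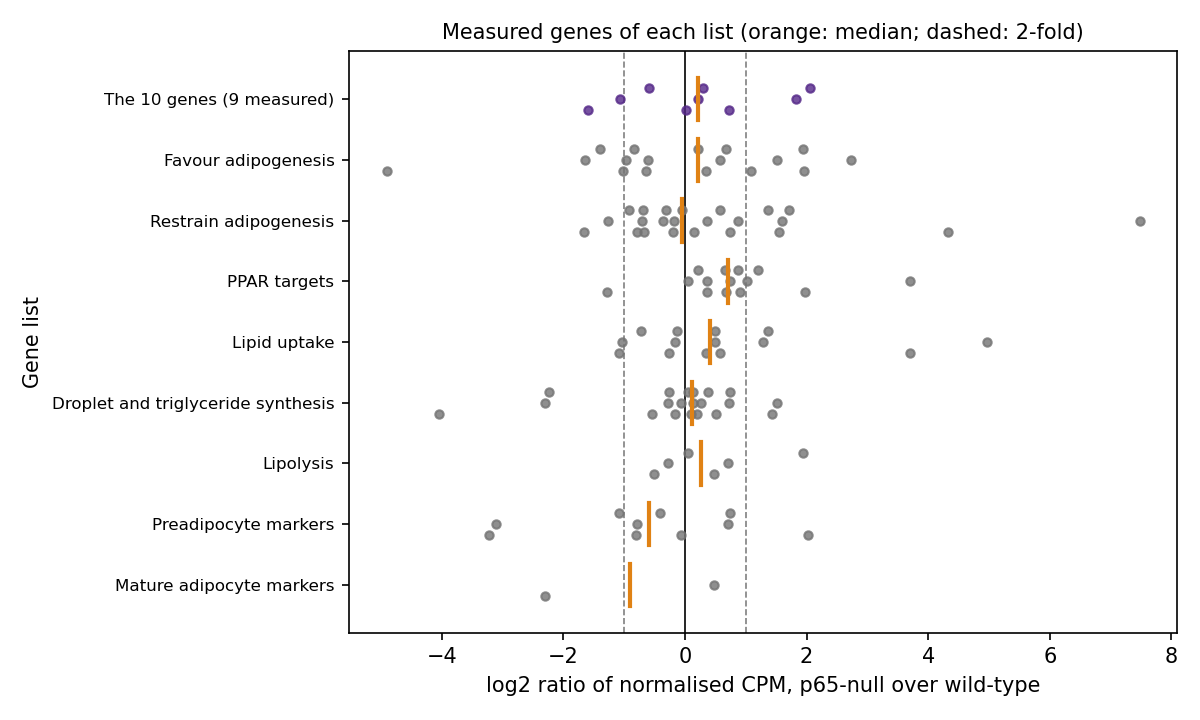
Log2 ratio, p65-null over wild-type, of the measured genes of each list (points, spread vertically to be seen), with the list's median in orange and 2-fold as dashed lines. The 9 measured genes (purple) spread on both sides of 0, as do the genes that favour and that restrain adipogenesis. The listed PPAR targets, which include none of those 9, have a median of 0.71.

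Lipid uptake and storage genes were mixed. Of 14 measured uptake genes 4 were past 2-fold on the higher side, Angptl4 again among them, and 2 on the lower side, against 12.2% and 13.7% of all measured transcripts, with a median of 0.42. Under ribosomal protein scaling the counts were 2 and 3 and the median 0.01, and no gene was past 2-fold on the lower side with upper quartile factors. The fatty acid transport protein gene Slc27a3 stood out, with 712 fragments in the p65-null and 32 in the wild-type library and a log2 ratio of 4.96 (4.45 to 5.52), or 4.37 after the correction. Scarb1, a lipoprotein receptor, was at -1.03, and Cav2, a caveola component, at -1.09, both near 2-fold and at -0.92 and -0.98 with upper quartile factors. After the correction Cav2 was at 0.025, with no difference left, and Scarb1 at -1.51. Of 20 measured genes of droplets and triglyceride synthesis, 2 were past 2-fold on the higher side and 3 on the lower side, shares near the 12.2% and 13.7% of all measured transcripts, with a median of 0.11, or -0.31 under ribosomal protein scaling. The lower ones were Gpat3, an acyltransferase of glycerolipid synthesis, at -4.05 (-5.10 to -3.17), the acyl-CoA synthetase gene Acsl4 at -2.23 (-2.45 to -2.02), which is -1.16 after the correction, and Dgat2 at -2.30 (-2.74 to -1.89). Lpin1, a phosphatidate phosphatase gene, was higher at 1.51 (1.18 to 1.85), as was the low-abundance Mogat2 at 1.42 (0.36 to 2.56), which is 0.92 after the correction.

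Markers of fat cell precursors lay on both sides. Of 10 measured, 1 was past 2-fold on the higher side in p65-null cells and 3 on the lower side, with a median of -0.60, against 12.2% and 13.7% of all measured transcripts. On the lower side the count was 5 under ribosomal protein scaling and 2 with upper quartile factors. Cd34 had 282.5 fragments in the p65-null and 3690 in the wild-type library, a log2 ratio of -3.22 (-3.40 to -3.05). Thy1 was at -3.10 (-3.36 to -2.86) and Eng at -1.09, or -0.97 with upper quartile factors. Ly6a, which encodes Sca-1, was higher, at 112 normalised CPM in p65-null and 27.6 in wild-type cells, a log2 ratio of 2.02. The part of such differences between the cultures in the values of the 10 genes was not tested.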

How the data were processed

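The authors deposited 1 table with a value per RefSeq transcript and library. Tools listed in the submitters' processing notes, without roles, are STAR 2.4, bcl2fastq 2.16, edgeR and HOMER, with build mm10. The counting rule and strand use were not given in the sources used here. Although the file is named as raw counts, the deposited values are a scaled signal, with equal column totals. All low values (12660 p65-null, 11519 wild-type) were whole multiples of 1 step within 0.0055 units. Even multiples prevailed (75.7% and 72.8% of 1 to 20 steps), so 1 fragment was taken as 2 steps and odd multiples as fragments with a single mate. No count test was run, since 1 library per genotype leaves no residual degrees of freedom.

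Transcripts were matched to a RefSeq gene table (16743) and GENCODE M21 (83), both on GRCm38; 55 had no match. Library sizes were scaled with edgeR 4.0.16 (R 4.3.3) TMM factors, 0.981 for p65-null and 1.02 for wild-type. Ratios have exact Clopper-Pearson intervals, single levels exact Poisson intervals and pairs of genes exact conditional odds ratio intervals (scipy 1.17.1; fragments rounded), all at 95% and for counting error only, as fragments carry no molecular tags. A 0 was set to a floor of 3 fragments. Similar transcripts were sought with BLAST 2.17.0. The ratio step was tested on simulated data.

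The alternatives were upper quartile factors, size factors from DESeq2 1.42.0, totals alone, scaling to 82 ribosomal protein genes, omission of the 10 most abundant transcripts, no expression minimum or one of 5 CPM, the interval end nearest 0, a prior of 2 fragments, and removal of loess trends (span 0.3) with GC content, then with length, for 98.8% of measured transcripts. All 10 genes are described; of family lists any gene, and of other lists up to 3 genes past 2-fold each way may be named, ranked by the interval end nearest 0, which itself need not pass 2-fold. Ptprc, Csf1r, Mrc1, Lyz2, Cdh5, Flt1, Kdr, Erg, Pdgfrb, Krt18, Cdh1, Lipe, Xist, Kdm5d, Cdkn2a, Spidr, Tmem189, Hdgfl2, Ppara, Plin5, Fabp3 and Fabp7 were chosen after their values were seen. The genes and lists were chosen with earlier results of these data known. A result of the lipolysis list is not reported here.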

Additional observations from a re-analysis of the deposited data

How the results depend on the processing

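Under the 10 alternatives, none of the 9 measured genes that was at least 2-fold apart changed direction. The number at least 2-fold higher was 2 throughout, except 1 with a minimum of 5 CPM. The number at least 2-fold lower was 1 in place of 2 with upper quartile factors, a minimum of 5 CPM, the interval end nearest 0, and the GC and length correction, since Fabp4 then lay within 2-fold or was not measured. Of 96 alternative values of the 10 genes, 18 lay outside the counting interval. The 96 include values that could not lie outside: a changed expression minimum leaves a ratio as it was, and the interval end nearest 0 is within the interval by definition. Cebpb, Cebpd and Pparg, all near 0, lay on the other side of 0 under ribosomal protein scaling, at -0.19, -0.39 and -0.10, as did Cebpb (-0.45) and Cebpd (-0.17) after the correction. The corrected Cebpd value rests on a matched transcript longer than the gene's RefSeq span. That scaling moved the median of all measured transcripts to -0.44 and gave 900 transcripts past 2-fold on the higher and 3010 on the lower side, against 1475 and 1667, which is 23.0% against 46.9% on the higher side. Upper quartile factors moved the median to 0.09. The numbers higher and lower were 3293 and 2743 with no minimum, 965 and 1104 at the interval end nearest 0, and 924 and 1217 at 5 CPM. Across transcripts, the log2 ratio followed GC content (Spearman 0.44, a description). Cav2 stood at 0.025 after the correction, against -1.09; the cause was not tested. The mean log2 ratio of the measured genes was 0.21, as the median. Depth limits Lpl, Plin4 and Fabp4. No paired analysis was possible because each genotype has 1 library.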

Other observations

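Relatives of the 10 genes under the expression minimum had few fragments. Ppara, the receptor of the PPAR family best known from liver, had 17 fragments in the p65-null and 3.5 in the wild-type library, a log2 ratio of 2.77 (1.07 to 4.96). Plin5, a perilipin of oxidative tissue that lies next to Plin4, had 5.5 fragments in the p65-null and 2.5 in the wild-type library, with an interval that included 0 (-0.77 to 4.56). Fabp3, the heart form of the carriers, had 7.5 fragments in the p65-null and 17 in the wild-type library, and Fabp7, the brain form, 1.5 and 11. The intervals of both included 0.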
